A study of Mus musculus with 4 samples.

Results

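Tfcp2l1 binding was examined at 10 genes of the epithelial surface: the membrane serine protease genes St14, Prss8 and Tmprss2, their inhibitor genes Spint1 and Spint2, the epithelial Ets factor genes Elf3 and Ehf, the splicing regulator genes Esrp1 and Esrp2, and the trafficking gene Rab25. Peaks belonged to the set if their summit lay inside one of these genes or within 50 kb of either end, so the members were chosen by the positions of the deposited peaks. By that rule 100 of the 57614 peaks of repeat 1 and 97 of the 51610 peaks of repeat 2 were kept. The genes were picked with earlier results of these data known, so counts set against all protein-coding genes are descriptions and not tests. The libraries came from wild-type mouse embryonic stem cells without any treatment, grown with 1000 units/mL of LIF, 3 µM CHIR99021 (a GSK3 inhibitor) and 1 µM PD0325901 (a MEK inhibitor), the medium called 2i. Tfcp2l1 was immunoprecipitated with 10 µg of a custom antibody in 2 repeats, each with a Tfcp2l1 ChIP library and an input library. The labels leave unsaid if the repeats were grown apart, and their spread may be only technical. The ChIP libraries held 19353473 and 22555373 tags after the authors' duplicate filter, against 18446758 and 23825930 in the inputs. Enrichment is given below as the authors' fold over the local background of each peak, with repeat 1 before repeat 2. RNA was not measured here, so neither expression of these genes nor markers of the labelled cell type could be examined.

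Matriptase, the product of St14, is a membrane-anchored serine protease that acts in a cascade with prostasin, the product of Prss8, and is held in check by the Kunitz-type inhibitors encoded by Spint1 and Spint2. Elf3 and Ehf are Ets factors with epithelium-restricted expression, Esrp1 and Esrp2 direct epithelial patterns of alternative splicing, and Rab25 is a Rab11-type GTPase of apical recycling in polarised cells. Tfcp2l1 is a member of the CP2 family, which is related to the Grainyhead factors known for their role in epithelia, and CP2 proteins bind paired short elements in DNA.

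Start-site sequence from RefSeq (GRCm38.p6) was at hand for 5 of the 10 genes, Spint1, Spint2, Tmprss2, Elf3 and Rab25. The 250 bases before the listed start are shown for Spint1 and Elf3, where a peak of both repeats covered the whole stretch, and for Spint2, where none did. Capitals mark matches to a form of the CP2 site, the letters CCNG repeated with 6 bases between the copies, on either strand (the 2 matches of Spint2 overlap). Each sequence runs 5′ to 3′ on the strand of its gene.
Spint1, chr2:119237110-119237359, plus strand: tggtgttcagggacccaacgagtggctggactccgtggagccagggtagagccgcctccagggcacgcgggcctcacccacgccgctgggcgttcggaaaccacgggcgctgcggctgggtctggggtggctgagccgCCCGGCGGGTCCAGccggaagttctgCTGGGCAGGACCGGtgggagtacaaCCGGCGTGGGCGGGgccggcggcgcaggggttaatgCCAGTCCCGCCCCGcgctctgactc
Elf3, chr1:135258473-135258722, minus strand: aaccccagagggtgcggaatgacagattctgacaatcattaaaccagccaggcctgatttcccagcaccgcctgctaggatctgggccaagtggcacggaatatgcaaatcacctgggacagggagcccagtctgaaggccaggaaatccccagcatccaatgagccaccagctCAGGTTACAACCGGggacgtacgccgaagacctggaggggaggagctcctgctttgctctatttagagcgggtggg
Spint2, chr7:29281978-29282227, minus strand: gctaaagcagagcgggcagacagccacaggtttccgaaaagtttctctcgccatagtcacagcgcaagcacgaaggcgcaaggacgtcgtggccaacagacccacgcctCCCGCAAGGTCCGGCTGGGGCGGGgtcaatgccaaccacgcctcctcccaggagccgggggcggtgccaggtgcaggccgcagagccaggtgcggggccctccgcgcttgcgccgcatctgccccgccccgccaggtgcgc

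Spint1 held 4 matches in this stretch, the first bases of which stood 112, 86, 61 and 25 bases before the start, with steps of 26, 25 and 36 bases. Of all 32851 RefSeq start-site entries, 0.804% had 4 or more matches and 24.9% had at least 1. The Spint1 stretch was 72.8% G or C, and among the 3320 entries within 5 percentage points of that, 3.77% had 4 or more. Elf3 had 1 match (57.2% G or C) and Spint2 had 2 (69.6% G or C), while Rab25 and Tmprss2 had none. Among entries within 5 percentage points of the same content, 27.4% had at least 1 for Elf3 and 22.0% at least 2 for Spint2. Entries overlapped by a shared peak of both lists numbered 5900, and 41.2% of them held the CP2 form, against 24.9% of all entries. Base composition was not separated in that comparison. The Grainyhead form AACNGGTT, searched on both strands, was found in the Rab25 stretch alone among the 5, 102 to 95 bases before the start, and in 1.79% of all entries. Matches are descriptions of letters and not measured sites.

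Binding at these genes recurred between the repeats. A peak was called shared where it had at least 1 bp in common with a peak of the other list, which held for 85 of the 100 peaks of repeat 1 and 83 of the 97 peaks of repeat 2 (85.0% and 85.6%, against 76.1% and 84.8% of the whole lists). A shared peak lay in or within 50 kb of 9 of the 10 genes, all but Esrp1. Since 80.6% of the 21887 protein-coding genes met the same rule, and the rule chose peaks by that distance, the count of 9 says little on its own. Inside the gene or within 10 kb, 9 of the 10 genes again had one, against 64.5% of protein-coding genes. Within 1 kb of a gene end a shared summit lay at 6 of the 10, namely Spint1, St14, Prss8, Tmprss2, Elf3 and Rab25, against 28.9%. At Rab25 that summit was nearer to another gene. The choice of genes with earlier results known limits these contrasts as well.

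**Figure D1:**
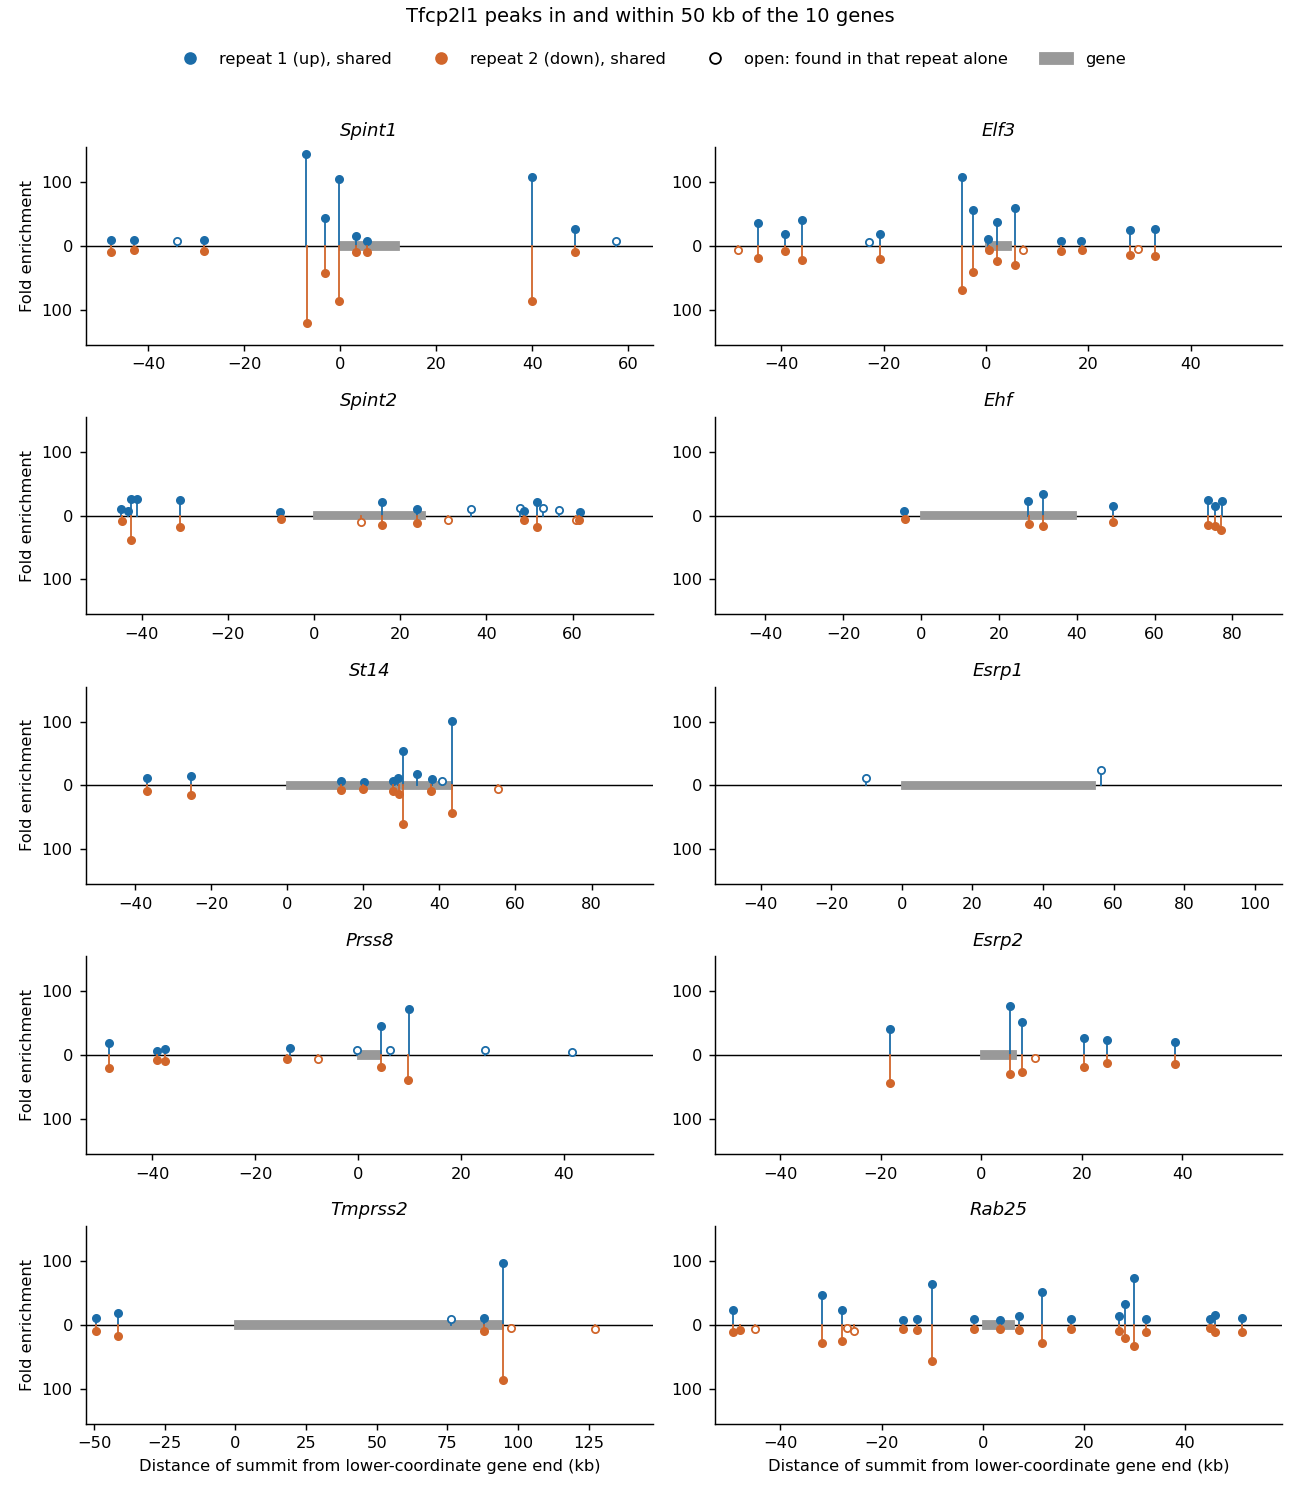
Each panel shows a gene (grey bar) with the summits of its peaks by distance from the lower-coordinate end of the gene in kb, and fold enrichment upward for repeat 1 and downward for repeat 2. Filled points are shared peaks. The tallest stems stand beside Spint1 (145-fold and 121-fold), at the ends of St14 and Tmprss2 and beside Elf3, and the panel of Esrp1 has 2 open points of repeat 1 and none of repeat 2.

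The strongest sites of the set belonged to the strongest of the whole lists. In the 10% of each list with the highest enrichment (at least 43.4-fold in repeat 1 and 32.2-fold in repeat 2) stood 18 of the 100 peaks of repeat 1 and 14 of the 97 of repeat 2, or 18% and 14.4%, against 10% by construction. A shared peak in that top 10% of both lists lay within 50 kb of 6 genes, Spint1, St14, Prss8, Tmprss2, Elf3 and Rab25, against 31.8% of protein-coding genes. Within 10 kb the same held for 5 genes (without Rab25), against 15.4%. Because the genes were chosen with earlier results of these data known, neither contrast was tested. Median enrichment over all member peaks was 14.6-fold and 10.6-fold, against 12.1-fold and 10.2-fold over the whole lists, so the middle of the set lay near the middle of each list.

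**Figure D2:**
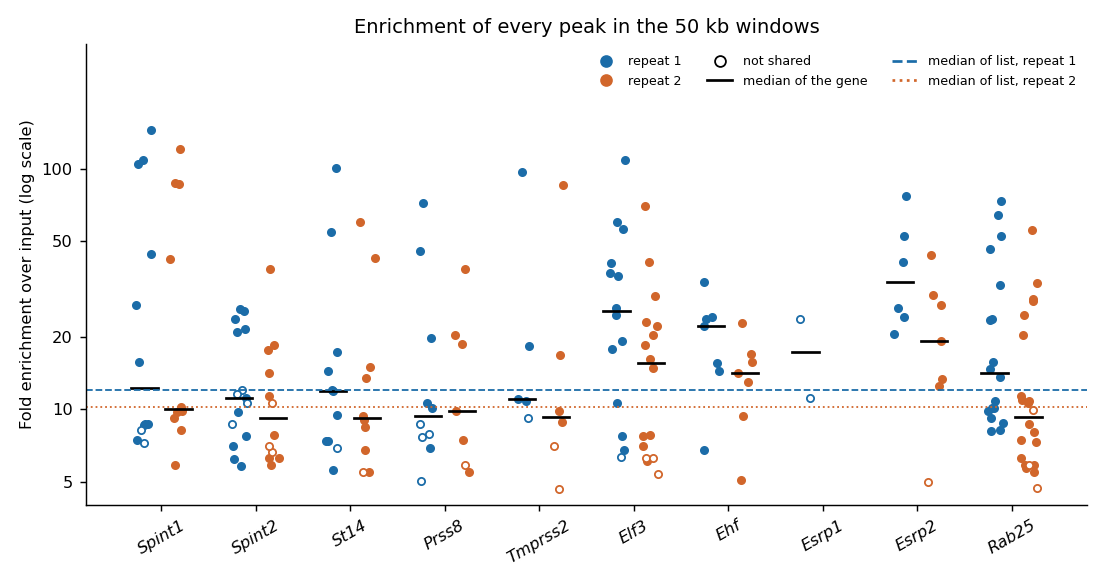
Fold enrichment over input (log scale) of every peak in the 50 kb window of each gene, in repeat 1 (blue) and repeat 2 (orange). Short bars are medians per gene and broken lines the medians of the whole lists, 12.1-fold and 10.2-fold. Most genes have a few peaks far above their own median, while all peaks of Esrp2 in repeat 1 lie at or above 20.5-fold.

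Among the inhibitor genes, Spint1 carried the highest enrichment of the set, and Spint2 had no site of that strength. A summit 7.0 kb below the lower-coordinate end of Spint1, which is its start (chr2:119229556-119231138), had 145-fold and 121-fold enrichment from 658 and 657 tags, and ranked in the top 0.208% and 0.0407% of the lists. The nearest gene of that summit was Ppp1r14d. A summit 266 bp before the listed start, in the peak that covers the printed sequence (chr2:119236592-119239443 in repeat 1), had 104.85-fold and 86.4-fold from 677 and 471 tags. Both of these sites were thus high in both repeats, with summits 25 bp and 4 bp apart. A site 27.7 kb beyond the other end, nearest to Rhov, had 109-fold and 87.3-fold, and one 3.15 kb before the start had 44.2-fold and 42.3-fold. The 2 shared peaks inside Spint1 were weaker, at 15.8-fold and 9.23-fold and at 7.45-fold and 9.77-fold.

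Spint2 had about as many shared peaks in its window, 11 in repeat 1 and 9 in repeat 2, against 10 and 10 at Spint1, and its strongest, 26.2-fold and 38.5-fold, stood below the 145-fold and 121-fold at Spint1. The near-equal counts depend on the 1 bp rule. With overlap of at least 50% of both peaks, or summits at most 100 bp apart, Spint2 had 7 and 6 in repeat 1, while Spint1 kept 10. The listed start of Spint2 had no summit closer than 1764 bp (11.1-fold) and 1781 bp (11.4-fold), both inside the gene, and no peak reached the printed sequence. Inside the gene another site had 20.9-fold and 14.1-fold. The strongest peak of the window lay 42.3 kb away and nearest to Catsperg1, at 26.2-fold in repeat 1 and 38.5-fold in repeat 2. The repeat 2 peak there (chr7:29212422-29215653) spanned several separate peaks of repeat 1, so their values are not one-to-one. A site 31.1 kb away and nearest to Kcnk6 had 23.8-fold and 17.7-fold, and one 26.0 kb away and nearest to Dpf1 had 21.6-fold and 18.4-fold. Within 10 kb, the strongest site of Spint1, itself nearest to Ppp1r14d, exceeded that of Spint2 by 6.92-fold and 8.58-fold. Over all matched pairs, 1 SD of the ratio between repeats was a factor of 1.44. That factor is for the same peak in 2 repeats and gives no error for a ratio between 2 genes.

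Each of the 3 protease genes had a shared site at a gene end. At St14, a summit 158 bp beyond the upper end (chr9:31130973-31132479) had 101-fold and 42.8-fold enrichment from 300 and 200 tags. Inside the gene lay a broad peak of 4195 bp in repeat 1 and 4850 bp in repeat 2 (chr9:31118294-31122488 and chr9:31118409-31123258), with 54.5-fold and 60-fold from 665 and 675 tags. The end site was the higher of the pair in repeat 1 and the lower in repeat 2, so their order is not settled by these repeats. St14 also held the most shared peaks inside a gene, 7 of its 10 in repeat 1, and the other 6 ran from 5.63-fold to 17.3-fold there.

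At Tmprss2, the summit lay 135 bp and 127 bp inside the upper end of the gene record (chr16:97658749-97659806), with 96.5-fold and 85.7-fold from 363 and 340 tags. The gene is on the minus strand, so this is the upstream end of the record. The RefSeq start-site entry of Tmprss2 lies elsewhere, 48.2 kb from this summit, and the nearest summits to it were 29.9 kb (repeat 1) and 41.6 kb (repeat 2) away. The rest of the Tmprss2 window was sparse. Its other 3 shared peaks had 10.8-fold to 18.4-fold in repeat 1, the highest of them 41.4 kb away and nearest to Fam3b, and with 2.05 shared peaks per 100 kb of window, 54.6% of protein-coding genes had a denser one.

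At Prss8, a summit lay 23 bp outside the upper end in repeat 1 and 18 bp inside it in repeat 2 (chr7:127928378-127930697 in repeat 1), with 45.7-fold and 18.8-fold from 264 and 206 tags. A higher one stood 5.39 kb beyond that end and nearest to the neighbouring protease gene Prss36, with 72.4-fold and 38.5-fold. Both sites were lower in repeat 2, by 2.44 times and 1.88 times, against a median of 1.31 times over all matched pairs. The third site, 48.5 kb away and nearest to Zfp646, had 19.7-fold and 20.3-fold. Of the 10 peaks of repeat 1 in the Prss8 window 4 were not found again, with 5.05-fold to 8.71-fold.

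The Ets gene Elf3 was flanked by strong sites on both sides, and Ehf was not. Of 13 shared peaks at Elf3 in each repeat, the highest lay 4.78 kb below the lower end, which is downstream of the gene (chr1:135248305-135249565), with 109-fold and 69.8-fold from 407 and 370 tags. A second downstream site 2.59 kb away had 56.4-fold and 41.2-fold. Upstream, a summit 857 bp and 838 bp before the listed start had 59.9-fold and 29.7-fold, in a peak that covers the printed sequence. Elf3 itself was the nearest gene of all 3. Inside the gene lay a site of 36.8-fold and 23.2-fold and one of 10.6-fold and 7.06-fold. Of protein-coding genes, 94.7% had fewer shared peaks in their window than Elf3.

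Ehf is alone in its window, with no other protein-coding gene within 50 kb, and was the nearest gene of all 7 of its shared peaks. Every peak of either repeat there was shared. The strongest lay inside the gene in repeat 1 (chr2:103294204-103295235, 33.8-fold against 15.7-fold in repeat 2) and 37.4 kb beyond the upper end in repeat 2 (22.8-fold against 23.7-fold in repeat 1). That distal site is 1 of 3 in a row, at 33.8 kb, 35.7 kb and 37.4 kb from the gene, repeat 1 giving 15.6-fold to 24.2-fold there and repeat 2 giving 14.1-fold to 22.8-fold. No shared summit lay within 1 kb of an end of Ehf.

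The splicing regulator genes differed from each other in whether any site recurred. Esrp2 had 6 shared peaks in each repeat, and its median enrichment was the highest of the 10 genes in both, 33.7-fold and 19.2-fold. A summit 1.19 kb inside the upper end of Esrp2 (chr8:106134825-106137586) had 77.0-fold and 29.8-fold from 383 and 220 tags, and a second one 1.22 kb beyond that end had 52.4-fold and 27.1-fold. A site 18.2 kb from the gene and nearest to Nfatc3 had 41.0-fold and 44.0-fold, so that it was the strongest of the window in repeat 2 and the third in repeat 1.

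Esrp1 had 2 peaks, both in repeat 1 alone. The first lay 1.63 kb beyond the upper end (chr4:11387860-11388965) with 23.7-fold enrichment from 70 tags, and the second 10.2 kb below the lower end (chr4:11321349-11322258) with 11.1-fold from 34 tags. In repeat 2 the closest peak to the first was 97.6 kb away. A peak of that enrichment was rarely missed by the other repeat. Of the 3245 peaks of repeat 1 with enrichment within 10% of 23.7-fold, 3216 were shared (99.1%) and 29 were not. Among the 13763 peaks of repeat 1 without a partner, 24 had at least this enrichment. The tag counts of repeat 2 at this place were not analysed here, so a weaker signal below the authors' threshold cannot be told from none.

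Rab25 lay in the densest stretch of the set. Its window held 18 shared peaks in repeat 1 and 19 in repeat 2, and 98.6% of protein-coding genes had fewer. Per 100 kb of window it had 16.9, a density exceeded by 0.114% of protein-coding genes. Rab25 was the nearest gene of only 1 of the 18, with 6 other protein-coding genes in the window. The strongest sites lay 10.02 kb from Rab25 and nearest to Mex3a (64.3-fold and 55.7-fold), 23.6 kb from it and nearest to Ubqln4 (73.5-fold and 33.6-fold), and 5.39 kb from it, again nearest to Ubqln4 (52.4-fold and 28.7-fold). Inside the gene and within 1 kb of its ends the peaks were weaker. The summit 949 bp and 935 bp before its listed start, nearer to another gene, had 13.7-fold and 7.50-fold, and the peak inside Rab25 8.17-fold and 6.28-fold.

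**Figure D3:**
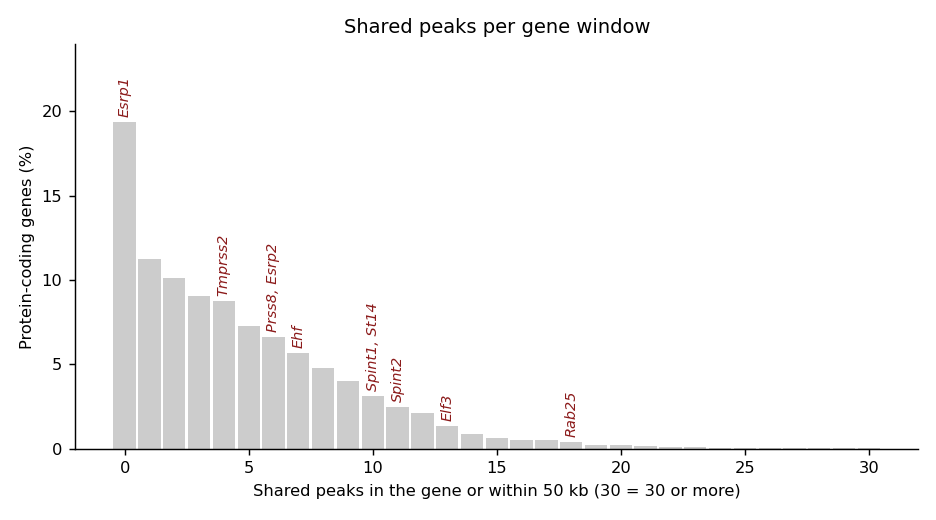
Bars show the percentage of 21887 protein-coding genes by the number of shared peaks of repeat 1 in the gene or within 50 kb, and the names mark the bars in which the 10 genes fall. Rab25 (18), Elf3 (13) and Spint2 (11) stand in the thin right part and Esrp1 (0) in the first bar. The count of Spint2 fell to 7 and 6 under stricter rules of overlap.

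Across the 10 genes the median number of shared peaks per window was 8.5, against 4 over all protein-coding genes. Per 100 kb the medians were 6.36 and 2.58, and these contrasts too follow a choice of genes made with earlier results known. These windows also hold sites of neighbours: the gene itself was the nearest protein-coding gene for 35 of the 85 shared peaks of repeat 1. That share ran from 7 of 7 at Ehf, 8 of 10 at St14 and 8 of 13 at Elf3 to 2 of 11 at Spint2, 1 of 6 at Prss8 and 1 of 18 at Rab25.

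By medians, shared peaks were most enriched in the bands within 10 kb outside the genes. Shared peaks within 1 kb outside a gene end had medians of 59.9-fold (5 peaks of repeat 1) and 36.2-fold (4 peaks of repeat 2), against 17.3-fold and 12.1-fold over all protein-coding genes taken the same way. Those from 1 to 10 kb outside had 48.3-fold and 27.9-fold (12 peaks each), against 15.9-fold and 11.8-fold. Inside the genes the 19 shared peaks of each repeat had medians of 11.9-fold and 11.4-fold, against 15.5-fold and 11.4-fold. Of those in repeat 1, 7 were at St14 and ran from 5.63-fold to 54.5-fold, so this median leans on 1 gene. From 10 to 50 kb outside the medians were 18.4-fold (49 peaks) and 11.9-fold (48 peaks), against 15.9-fold and 11.8-fold. The end summit of Prss8 counted as outside in repeat 1 (45.7-fold) and as inside in repeat 2 (18.8-fold). That of Tmprss2 (96.5-fold and 85.7-fold), 135 bp and 127 bp from the end, counted as inside. The bands near the ends rest on few peaks, several of them at Spint1 and Elf3, and no test was made.

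The farthest kept summit lay 49.4 kb from Rab25, with 23.8-fold and 10.99-fold enrichment. The nearest summit left out lay 50.6 kb from Spint2, with 14.25-fold and 9.03-fold. The first peak left out at Spint1, 55.5 kb away, had 151-fold and 83.2-fold, in repeat 1 above every peak of the set. The first left out at Prss8, 63.7 kb away, had 63.3-fold and 58.9-fold.

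Matched sites ranked alike in the repeats, with repeat 1 the higher. Over the 78 peaks of the set that matched one-to-one, enrichment was higher in repeat 1 at 64, by a median of 1.36 times, against 1.31 times over all 41701 one-to-one pairs. The SD of the log2 ratio was 0.44 within the set and 0.52 over all pairs. Spearman's rho of the folds was 0.910 across the 78 regions and 0.813 across all pairs, which share their libraries and are not replicates. Summits of the matched peaks lay a median of 23 bp apart, and 70 of 78 within 100 bp.

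**Figure D4:**
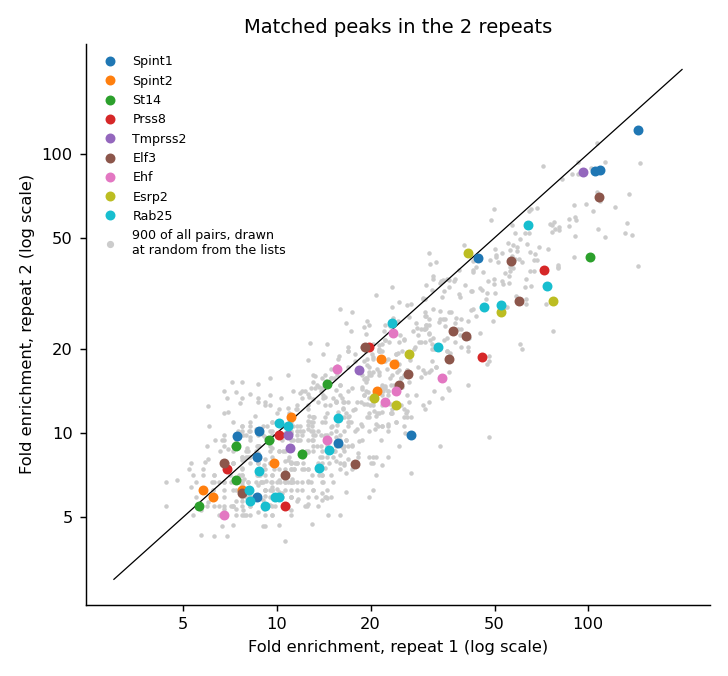
Fold enrichment in repeat 1 (x axis) and repeat 2 (y axis), both on log scales, for the 78 matched peaks, coloured by gene, over 900 of all matched pairs in grey. The line marks equal values, and 64 of the 78 lie below it. Sites of Spint1, Tmprss2 and Elf3 stand at the upper end in both repeats.

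Ordered by the strongest shared peak in the window, the genes ran in repeat 1 from Spint1 (145-fold) through Elf3 (109-fold), St14 (101-fold), Tmprss2 (96.5-fold), Esrp2 (77.0-fold), Rab25 (73.5-fold) and Prss8 (72.4-fold) to Ehf (33.8-fold) and Spint2 (26.2-fold). In repeat 2 Spint1 was again first (121-fold), followed by Tmprss2 (85.7-fold), Elf3 (69.8-fold), St14 (60-fold), Rab25 (55.7-fold), Esrp2 (44.0-fold), Prss8 and Spint2 (38.5-fold each) and Ehf (22.8-fold). The strongest site was not the same in both repeats at St14, Esrp2, Rab25 and Ehf. Those of Spint1, Rab25, Prss8 and Spint2, and that of Esrp2 in repeat 2, were nearest to other genes, so the order is that of windows. Spint1 led its next neighbour of repeat 1 by 1.33 times, less than the factor of 1.44 for 1 SD between repeats. From Elf3 to Prss8, neighbours differed by 1.02 to 1.25 times in repeat 1, also less than that factor, and 2 pairs of them changed places in repeat 2. In repeat 2 Tmprss2 stood 1.95 times above Esrp2 and Rab25 1.45 times above Prss8. By the strongest peak within 10 kb, Rab25 (52.4-fold and 28.7-fold) was instead below Prss8 (72.4-fold and 38.5-fold) in both repeats. The step from Prss8 down to Ehf, 2.14 times in repeat 1 and 1.69 times in repeat 2, was larger than the factor of 1.44 in both. That factor describes the same peak in 2 repeats and does not measure the error of a ratio between genes.

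Peaks found in 1 repeat alone were weaker by median than shared ones, but the ranges overlapped. Shared peaks went down to 5.63-fold in repeat 1 (at St14) and 5.10-fold in repeat 2 (at Ehf). The 15 of repeat 1 had a median of 8.70-fold and 32 tags, against 18.4-fold and 65 tags for the 85 shared ones. The 14 of repeat 2 had 6.09-fold and 30 tags, against 12.9-fold and 64 tags. Apart from the stronger Esrp1 peak, those of repeat 1 reached at most 12.1-fold (in the Spint2 window), and those of repeat 2 at most 10.6-fold (inside Spint2).

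Relatives of these genes were counted in lists by the same rule of a shared peak inside the gene or within 10 kb, against 64.5% of protein-coding genes. Of 16 other membrane serine protease genes, 8 had one. The strongest were at Corin, the heart protease that processes natriuretic peptide precursors (90.3-fold and 62.9-fold), and at Tmprss9 (102-fold and 40.8-fold), and Tmprss15, the intestinal enteropeptidase gene, was without any peak within 50 kb in either repeat. Of 9 other inhibitor genes 4 had one. The strongest, 88.2-fold and 71.4-fold, was a single site that counted for both Wfdc2 and its neighbour Spint3, and Spint4 had no peak within 50 kb.

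All 24 other Ets factor genes had a shared peak within 10 kb, and 7 of them one in the strongest 10% of both lists, led by Etv4 (158-fold and 103-fold) and Etv5 (156-fold and 84.8-fold), targets of FGF and ERK signalling. Of 16 other RNA-binding splicing regulator genes 14 had one, led by Rbm47 (118-fold and 64.8-fold) and Ptbp1 (89.0-fold and 90.3-fold), while Ptbp2, the neuronal relative of Ptbp1, had no peak within 50 kb. In the Rab11 branch and apical trafficking 9 of 11 had one, led by Ap1m2, the epithelial clathrin adaptor subunit gene (139-fold and 51.0-fold), and Rab11fip3 (108-fold and 51.2-fold). Of 23 other epithelial identity genes 22 had one, led by the tight-junction gene Cldn4 (157-fold and 117-fold) and the keratin gene Krt8 (104.85-fold and 77.7-fold). A peak in the strongest 10% of both lists within 10 kb was found at 5 of the 10 genes of the set, at 5 of 16 proteases, 2 of 9 inhibitors, 5 of 16 splicing regulators, 5 of 11 trafficking genes and 8 of 23 identity genes, against 15.4% of protein-coding genes. The differences between these shares were not tested.

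**Figure D5:**
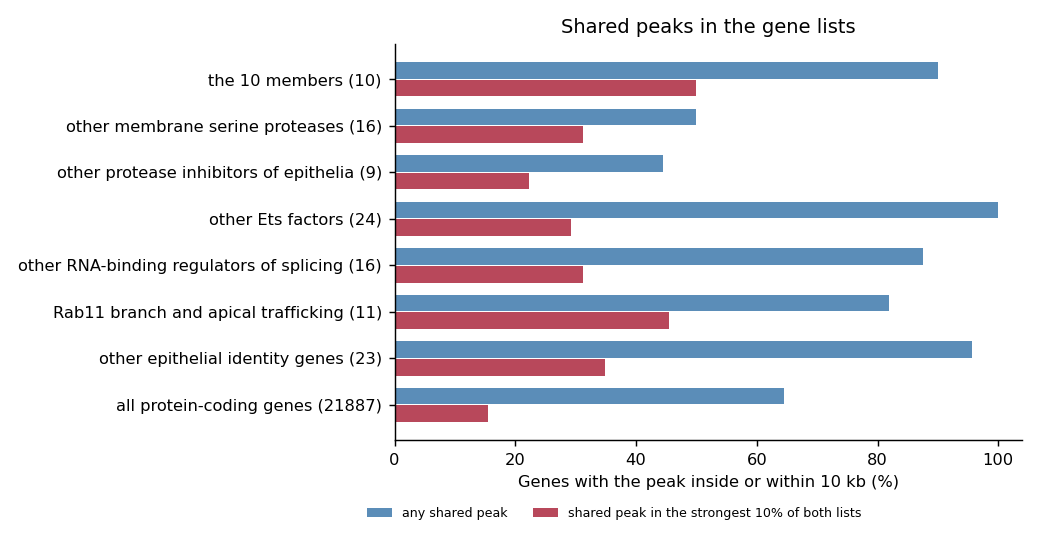
Bars give the percentage of genes in each list with a shared peak inside the gene or within 10 kb (blue) and with one in the strongest 10% of both lists (red), with the number of genes in brackets. The 10 genes stand at the top (9 and 5 of 10) and all protein-coding genes at the bottom (64.5% and 15.4%).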

How the data were processed

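Per the file headers, the authors called peaks with MACS 1.4.1 separately in each repeat, ChIP against the input of the same repeat, at a p-value threshold of 1e-05, with a tag size of 35 bp, a fragment length of 200 bp and at most 2 duplicate tags per position. CASAVA 1.8.2 is named in the submitters' processing notes, and no aligner is given in the sources used here. Deposited values were the count of ChIP tags per peak (not normalized), the score (10 times the -log10 p), the fold enrichment over local background (a ratio) and the FDR in percent, per the file headers.

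The notes name mm9, but chromosome Y peaks extend to 90.8 Mb and summits lie at gene ends of GRCm38, so GRCm38.p6 RefSeq gene records were used. They give no strand or exons. Strand came from the RefSeq start-site table. Distances run from the summit to the nearer end of the record. Shared peaks are counted in repeat 1 unless stated. The strongest 10% is by fold enrichment. With several overlapping partners, the highest value of repeat 2 is given. Python 3.11.15 with pandas 2.3.3 was used, and matching and windows were checked on simulated peaks. Members, lists and rules were chosen with earlier results of these data known, so no test was made. Named were the 10 genes, the nearest genes of their strongest peaks, and per list the 2 genes of best mean rank and up to 2 without a peak within 50 kb. Scores tie at 3100 and were not used for ranking. Tag counts carry counting error, and no interval is given. Alternatives were other windows, overlaps, thresholds, single repeats and nearest genes.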

Additional observations from a re-analysis of the deposited data

How the results depend on the processing

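No paired analysis was possible because the reported values come from no test and the lists hold no column of input values. The count of genes with a shared peak stayed at 9 of 10, within 10 kb and in the 50 kb window, under the alternatives run for each, except with repeat 1 alone, where Esrp1 brought it to 10. With other windows, chosen after seeing the data, the count was 9 at 10 kb and 25 kb and 10 at 100 kb. In the widest window Esrp1 had 1 shared peak. From single repeats these counts ran from 9 to 10, and the peaks in the windows from 97 to 100, against 85 shared ones. The number of shared peaks followed the window, with 36 within 10 kb, 51 within 25 kb and 143 within 100 kb. It fell to 50 with fold enrichment of at least 10 and to 35 with peaks nearest to the gene itself. Median enrichment moved to 23.8-fold and 20.3-fold with a fold of at least 10, and to 23.6-fold and 15.7-fold with a score of at least 100. It moved to 20.1-fold and 13.6-fold with an FDR of at most 0.05%. These thresholds leave out weak peaks by construction. With only peaks nearest to the gene itself the medians were 19.3-fold and 13.9-fold. They stayed at 15.75-fold and 10.6-fold in the 10 kb window and at 14.5-fold and 10.2-fold in the 25 kb window. The count of 6 genes with a peak in the strongest 10% was 5, 6 and 8 in windows of 10, 25 and 100 kb and 7 with the 10% taken by tags, alternatives chosen after seeing the data. Of 110 counts for single genes, 40 moved by over 1.5 times, 31 of them down. Peaks that 1 repeat alone found had medians of 32 and 30 tags, and an effect of depth on them was not tested.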
